A study of Mus musculus with 36 samples.

Results

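The BCL2 family genes described here were 10 of the 40205 features counted in the series. They were taken by gene symbol. They comprised the survival genes Bcl2, Bcl2l1 and Mcl1, the pore-forming effectors Bax and Bak1, and the BH3-only genes Bbc3, Pmaip1, Bcl2l11, Hrk and Bid. The set was chosen by a measured value, the fall of Hrk in EVs at 320 mg/dL ethanol, so that contrast is given as a description with no test. RNA was sequenced from neurosphere cultures of mouse fetal neural stem cells (NSCs) and from the extracellular vesicles (EVs) that the same cultures released. The cells came from the dorsal telencephalon of fetuses labelled C57BL/6J and WT. The study's methods name the mice C57BL/6J (Ai14), a line that carries a Cre-dependent tdTomato reporter allele, in control and ethanol groups alike. Tissue was pooled by sex within each of 3 pregnancies (sets 3, 4 and 5), which gave 3 female and 3 male cultures, so a culture stands for pooled fetuses and not for 1 animal. Each culture was kept for 5 days in control medium (0 mg/dL ethanol), at 120 mg/dL or at 320 mg/dL, and EVs and cells were sequenced separately from every culture at every dose. There were thus 6 groups of 6 libraries, and ethanol was the only agent that differed between them.

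BCL2 proteins meet at the outer mitochondrial membrane. BAX and BAK1 open pores in it and so release cytochrome c, while BCL2, BCL-xL (the product of Bcl2l1) and MCL1 hold them back. BH3-only proteins are induced or activated by stress signals, and they bind the survival proteins through a short helix, the BH3 segment, or activate BAX and BAK1 directly. HRK, also called DP5, is a small BH3-only protein known for its induction in neurons deprived of trophic support.

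The BH3 segment is the stretch of sequence that joins the family, and its codons are shown here so that Hrk can be set beside the other members. The core was searched for in the coding sequence of the canonical GENCODE transcript as leucine, any 3 residues, glycine or alanine, and aspartate. Of the 9 members searched, 9 held this pattern exactly once, each within a single coding exon. Pmaip1, the remaining member, was not searched. Capitals mark the 6 codons of the core, and the lower-case letters are 6 codons on each side.
Hrk: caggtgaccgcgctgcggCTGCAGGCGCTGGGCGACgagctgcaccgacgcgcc
Bcl2l11: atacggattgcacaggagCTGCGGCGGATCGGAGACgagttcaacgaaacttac
Bbc3: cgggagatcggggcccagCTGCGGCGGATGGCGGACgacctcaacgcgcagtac
Bid: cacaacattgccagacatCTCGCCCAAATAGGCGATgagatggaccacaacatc
Bax: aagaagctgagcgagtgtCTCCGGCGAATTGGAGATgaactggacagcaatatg
Mcl1: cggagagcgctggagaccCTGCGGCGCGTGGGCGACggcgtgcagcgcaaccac
On GRCm39 the Hrk stretch lay on the plus strand at chr5:118307938-118307991, in the coding part of the gene at chr5:118302713-118327543. The Bcl2l11 stretch was at chr2:127989052-127989105 on the plus strand, that of Bbc3 at chr7:16047680-16047733 on the plus strand, that of Bid at chr6:120874241-120874294 on the minus strand, that of Bax at chr7:45115412-45115465 on the minus strand and that of Mcl1 at chr3:95566729-95566782 on the plus strand. The coding sequence of Hrk was the shortest of the 9, with 92 codons, and that of Mcl1 the longest, with 331.

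EV libraries held 959217 to 5509952 counts (median 3825686) and cell libraries 26566061 to 55282322 (median 37813815). In EVs the 10 most counted features took 34.1 to 62.2% of a control library, 45.4 to 66.0% at 120 mg/dL and 33.9 to 70.4% at 320 mg/dL, and the part of this in the results was not tested. The label of neural stem cells was checked against 10 markers, whose summed level was 3595 to 5631 CPM in cells (CPM, counts in a library scaled to 1000000), against 594 to 1172 CPM for 8 neuronal markers, 379 to 760.2 CPM for 6 of the oligodendrocyte lineage, 26.2 to 329.9 CPM for 4 of astrocytes and 0.403 to 0.799 CPM for 5 of microglia. The lists differ in length and single genes carry their sums, which are given as a description. In cells, Vim, Slc1a3 and Fabp7 had medians of 1562, 1191 and 960 CPM, Nes 343 and Notch1 139. Pax6, Hes1, Hes5 and Prom1 had 17.3 to 29.7 CPM, and the neuronal marker Map2 had 784 CPM. Sox2, a defining marker of neural stem cells, was listed at 0 in all 36 libraries, as were Aqp4, P2ry12 and 9136 features in all. Bak1 was among these features. A count of 0 allows up to 3 counts, which is 0.0543 to 0.113 CPM of the library total in cells. Of the exon bases of Bak1, 18.2% are shared with Ggnbp1 and 7.35% with Gm50253, both on the opposite strand, and whether HTSeq counted by strand is not given in the sources used here. Bak1 is therefore only said to be listed at 0. Pmaip1 reached only 1 to 16 counts in EVs and did not pass the filter on low counts there. Counts of 9 members were thus tested in cells and of 8 in EVs across doses.

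In EVs, Hrk fell with each step of ethanol in all 6 cultures. Its level, as CPM scaled by the trimmed mean of M values (TMM) within EVs, was 9.78 to 19.4 without ethanol (median 11.3), 5.02 to 13.3 at 120 mg/dL (median 7.84) and 2.85 to 8.09 at 320 mg/dL (median 5.01). The control range and the 320 mg/dL range did not overlap, while the 120 mg/dL range overlapped both. The contrast of 320 mg/dL with control chose the set, and the share of all genes without overlap was not counted. In the female cultures of sets 3, 4 and 5, Hrk was 14.1, 11.3 and 11.0 CPM in control EVs and 5.99, 2.85 and 3.33 CPM at 320 mg/dL. In the male cultures it was 9.78, 11.3 and 19.4 CPM in control EVs and 4.04, 8.09 and 7.40 CPM at 320 mg/dL. The smallest fall was that of the set 4 male culture, to 0.722 of its control, and the largest that of the set 4 female culture, to 0.273. This last value rested on 2 counts at 320 mg/dL against 18 in the control, and Hrk counts ranged over 2 to 36 at 320 mg/dL and 18 to 112 without ethanol. At 120 mg/dL the set 4 male culture was at 0.982 of its control, so its first step was slight. The set 3 male value at that dose rested on 4 counts.

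**Figure D1:**
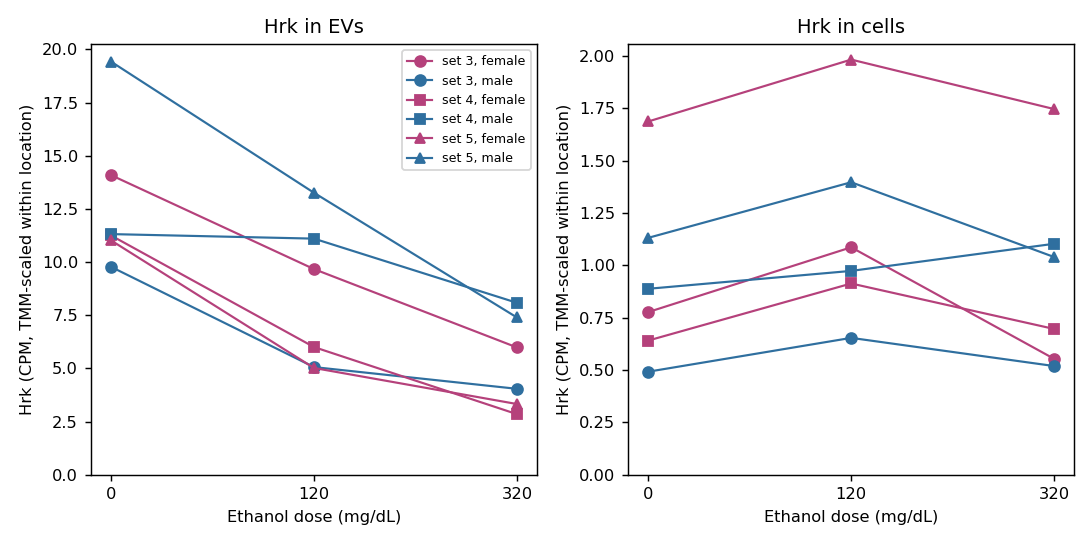
Hrk level (CPM, TMM-scaled within EVs or within cells, linear axes that differ between the panels) against ethanol dose in mg/dL, with 1 line per culture, colour for sex and symbol for pregnancy set. In EVs all 6 lines go down at both steps, from 9.78 to 19.4 CPM without ethanol to 2.85 to 8.09 CPM at 320 mg/dL, whereas in cells 6 lines go up at 120 mg/dL and 5 come down again.

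The fitted change of Hrk in EVs at 320 mg/dL was -1.21 on the log2 scale (SE 0.18), or 0.432 of control, and it is the value on which the set was chosen. Over all 11880 genes, 0.0842% passed an edgeR adjusted p under 0.05 in that contrast, which is given as background only. Of the 11880 genes, 7 went down at both steps in every culture and 0 went up at both, and Hrk was the only member of the 7. These steps hold the EV libraries on which Hrk was chosen, so its place among the 7 is not independent of that choice. On CPM of the library total, without TMM, Hrk also fell from 0 to 120 mg/dL in 6 of 6 cultures and from 0 to 320 mg/dL in 6 of 6, but from 120 to 320 mg/dL in 5 of 6, the male culture of set 3 going from 4.17 to 6.23 CPM.

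The lower dose was tested, although it shares its control libraries with the contrast that chose Hrk. At 120 mg/dL Hrk in EVs changed by -0.59 on the log2 scale (SE 0.17), with lower levels in 6 of 6 cultures. Its adjusted p over all genes was 0.693 (edgeR, unadjusted p = 0.00254), so it did not pass. The exact sign-flip test over the 6 cultures gave p = 0.0312, which is the smallest 6 pairs allow. It takes the female and male cultures of a pregnancy as independent. At this dose 1 of 11880 genes (0.00842%) passed, and 0 of the 8 members tested in edgeR, of which 1, Hrk, had an unadjusted p under 0.05. DESeq2 called 13 genes and 0 members, and gave Hrk no adjusted p.

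None of the other members tested in EVs moved the same way at both steps in every culture. Among the survival genes, Mcl1 was 26.0 to 35.5 CPM in control EVs (median 30.9), 31.8 to 36.9 CPM at 120 mg/dL (median 34.7) and 31.2 to 39.3 CPM at 320 mg/dL (median 36.4), with overlapping ranges. Its log2 fold change was 0.14 (SE 0.09, edgeR adjusted p = 0.893) at 120 mg/dL and 0.19 (SE 0.09) at 320 mg/dL, where 5 of 6 cultures were higher. With library totals in place of TMM the latter was -0.05, while the median of all genes was then -0.23. Bcl2 and Bcl2l1 had log2 fold changes of 0.06 to 0.15 at either dose, less than or near to their SEs of 0.14 to 0.20. The effector Bax, which also shares exon bases with a neighbouring gene on its own strand, was at 8.58 to 24.2 CPM over the 18 EV libraries, with log2 fold changes of -0.02 and 0.03.

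Of the BH3-only genes other than Hrk, Bcl2l11, which encodes BIM, was 25.3 to 77.0 CPM in control EVs (median 32.5), 22.6 to 81.7 CPM at 120 mg/dL (median 34.8) and 18.4 to 51.8 CPM at 320 mg/dL (median 29.4). Its log2 fold change at 320 mg/dL was -0.34 (SE 0.19), lower in 4 of 6 cultures, and the ranges overlapped. Bbc3, the gene of PUMA and a target of p53, was at 2.53 to 11.0 CPM over the 18 EV libraries, with log2 fold changes of -0.06 at 120 mg/dL (SE 0.19) and -0.20 at 320 mg/dL (SE 0.20). Bid, whose product is cut by caspase-8, was at 0 to 5.82 CPM with 0 to 23 counts, and 31.2% of its exon bases are shared with Bcl2l13 on the opposite strand. Differences in so few counts could be seen only if large, and the interval for Bid at 120 mg/dL ran from -0.61 to 0.73 on the log2 scale.

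**Figure D2:**
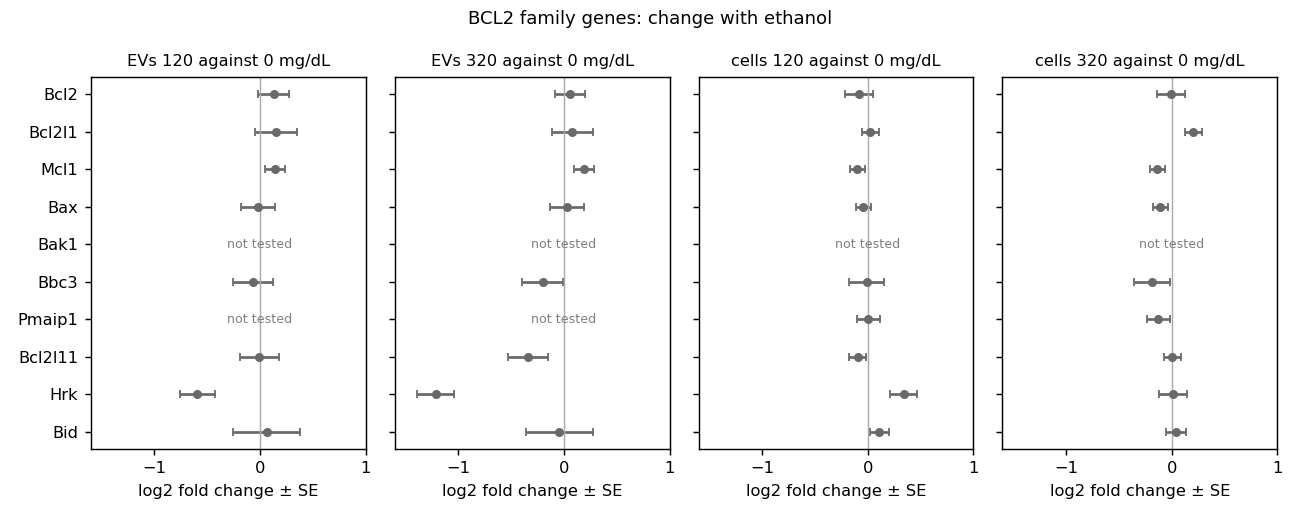
log2 fold change against control (points) and its standard error (bars) from the edgeR fits for each BCL2 family gene, in EVs and in cells at 120 and 320 mg/dL. Hrk stands at -0.59 and -1.21 in EVs and at 0.34 and 0.01 in cells, and the other members lie between -0.34 and 0.20. Genes marked as not tested did not pass the filter on low counts.

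In cells, no member passed at either dose. Hrk was low there, at 0.493 to 1.69 CPM without ethanol (median 0.833), 0.654 to 1.98 CPM at 120 mg/dL (median 1.03) and 0.519 to 1.75 CPM at 320 mg/dL (median 0.868), with 11 to 76 counts a library and overlapping ranges. At 120 mg/dL it was higher in 6 of 6 cultures, by 0.34 on the log2 scale (SE 0.13), with an adjusted p of 1.00 in edgeR (unadjusted p = 0.0228) and an exact sign-flip p of 0.0312. At 320 mg/dL its log2 fold change was 0.01 (SE 0.14, edgeR adjusted p = 0.989), with an interval from -0.28 to 0.31. From 120 to 320 mg/dL it was lower in 5 of 6 cultures, with a log2 fold change of -0.32 (SE 0.14, edgeR adjusted p = 1.00, unadjusted p = 0.0335). RNA here is from whole cultures, in which fewer cells of a type and less RNA per cell cannot be told apart.

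Among the survival genes in cells, Bcl2l1 at 320 mg/dL was 24.9 to 51.4 CPM (median 33.3), against 23.0 to 40.5 CPM in controls (median 29.8). It was higher in 5 of 6 cultures, by 0.20 on the log2 scale (SE 0.08), with an edgeR adjusted p of 0.489 (unadjusted p = 0.0225). Mcl1, a short-lived survival protein's gene, was 157 to 326 CPM at 320 mg/dL (median 239) against 164 to 373 CPM in controls (median 275), with overlapping ranges. It was lower in 6 of 6 cultures, with a log2 fold change of -0.13 (SE 0.07, edgeR adjusted p = 0.62), and the exact sign-flip test gave p = 0.0312. In the male cultures of sets 3 and 4, however, Mcl1 was at 0.9999 and 0.995 of control, which is next to no change. The remaining members tested in cells had log2 fold changes from -0.19 (Bbc3, SE 0.17) to 0.04 (Bid, SE 0.09) at 320 mg/dL. Over all genes in cells, 0 of 17792 (0%) passed at 120 mg/dL, 7 (0.0393%) at 320 mg/dL and 0 (0%) between the doses in edgeR. At an unadjusted p under 0.05 there were 444 genes at 120 mg/dL, 1525 at 320 mg/dL and 633 between the doses, and DESeq2 called 4, 94 and 3 genes. Members that passed in edgeR were 0 in all 3 comparisons, with 1, 1 and 2 of the 9 at an unadjusted p under 0.05, and DESeq2 called 0 members in each.

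The dose effect was then compared between EVs and cells. For Hrk at 120 mg/dL, the change in EVs minus that in cells was -0.99 on the log2 scale (SE 0.22), with an adjusted p of 0.291 over all genes in edgeR (unadjusted p = 0.000109). The fit holds all 36 libraries, and its EV control libraries are those of the contrast that chose Hrk. The p for Hrk is therefore not independent of that choice. In this interaction 2 of 18728 genes (0.0107%) passed, and no member did. The other members tested had differences between -0.10 and 0.19, with unadjusted p of 0.216 or more in edgeR. At 320 mg/dL the difference for Hrk was -1.29 (SE 0.23) and is given as a description.

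Without ethanol, Hrk was far higher in EVs than in the cells of origin. On a common TMM scale over the 12 control libraries, it was 13.7 to 27.8 CPM in EVs (median 16.2) and 0.400 to 1.43 CPM in cells (median 0.705). No EV library came near the highest cell library. The log2 fold change was 4.58 (SE 0.29, edgeR adjusted p = 2.88e-07), or 23.9-fold, with 10.6-fold in the culture of the smallest difference and 34.4-fold in that of the largest. The EV control libraries are those of the contrast that chose Hrk. Of the 15858 genes tested, 195, Hrk included, had a fold change as high or higher.

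Other BH3-only genes were also higher in EVs. Bcl2l11 was 37.3 to 110.1 CPM in EVs and 5.58 to 20.9 CPM in cells, without overlap, a log2 fold change of 2.05 (SE 0.26, edgeR adjusted p = 2.55e-05). Bbc3 was 4.44 to 15.1 CPM in EVs and 2.36 to 11.7 CPM in cells, with overlapping ranges, and rose by 0.78 (SE 0.24, edgeR adjusted p = 0.0115) in 6 of 6 cultures. This call was lost with library totals, with no filter and without the block by culture. Pmaip1, which encodes NOXA, went the other way, with 2.05 to 4.51 CPM in EVs and 4.82 to 13.9 CPM in cells, without overlap, with a log2 fold change of -1.52 (SE 0.32, edgeR adjusted p = 0.00101). How many of all genes showed no overlap was not counted, and 63.8% of all genes passed in this comparison.

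The survival gene Mcl1 and the effector Bax were lower in EVs. Mcl1 was 35.8 to 53.0 CPM in EVs and 137 to 311 CPM in cells, with a log2 fold change of -2.33 (SE 0.24, edgeR adjusted p = 4.84e-06), and Bax was 16.7 to 28.1 CPM against 39.0 to 59.4 CPM, a log2 fold change of -1.07 (SE 0.18, edgeR adjusted p = 0.000187). In both genes the ranges did not overlap, and the share of all genes without overlap was not counted. Bcl2 (0.21, SE 0.20) and Bcl2l1 (0.23, SE 0.21) did not pass, and their direction turned with library totals and with no filter. With every library thinned to the smallest total they were 0.75 and 0.75 and passed (edgeR adjusted p = 0.0134 and 0.0117), and Bcl2 also passed in a fit of all 36 libraries (0.36, edgeR adjusted p = 0.000654). Bid (-0.59, SE 0.29, edgeR adjusted p = 0.094) did not pass either, but did with library totals (-1.25, edgeR adjusted p = 0.00312), with no filter (-1.12, edgeR adjusted p = 0.0012) and in the fit of all 36 libraries (-0.69, edgeR adjusted p = 0.00331). In all, 6 of the 9 members tested passed, 3 higher and 3 lower in EVs, beside 10121 of 15858 genes (63.8%), so the members' share was near that of all genes. Of all genes that passed, 47.0% were higher in EVs with TMM, 28.8% with library totals and 62.8% in DESeq2. Library totals moved the median of all genes to -0.73, from -0.09 with TMM. Relative to these medians, Hrk stood at 4.66 with TMM and 4.68 with library totals, and Bbc3 at 0.87 and 0.86.

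**Figure D3:**
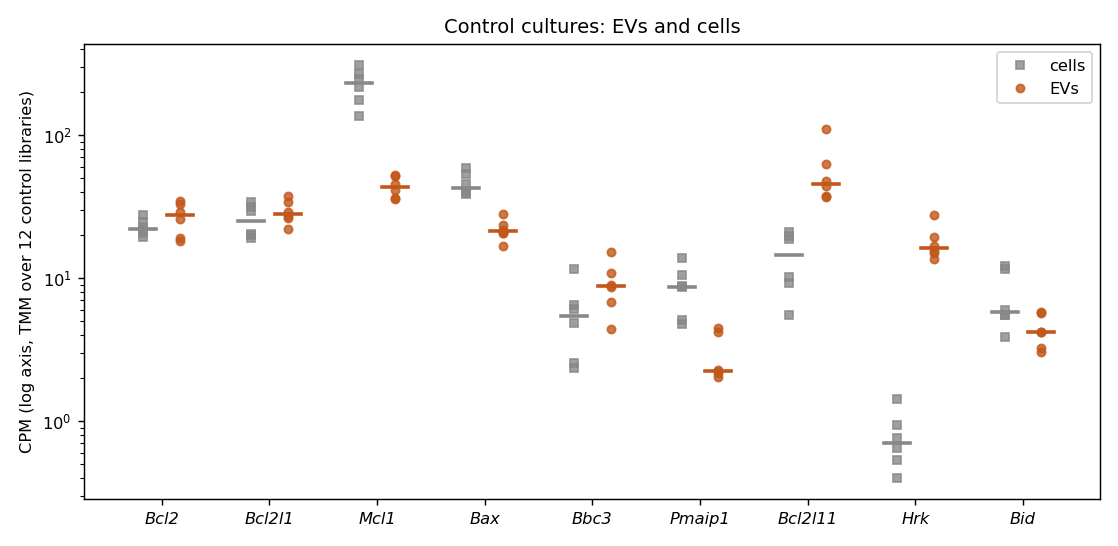
Level of 9 BCL2 family genes in the 6 control cultures, as CPM with TMM over the 12 control libraries on a log axis, in cells (squares) and EVs (circles), with a bar at each median. The points of Hrk, Bcl2l11, Mcl1, Bax and Pmaip1 do not overlap between EVs and cells. The share of all genes without overlap was not counted, and 63.8% of all genes passed an edgeR adjusted p under 0.05 here. Bak1, with no count in any library, is left out.

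The order of levels within a library changed as well. Lengths were the union of exons over all GENCODE transcripts of a gene, 5712 bases for Hrk and 9796 for Bid. Whether the authors counted on the same gene models was not checked, so the order depends on these lengths. Per kilobase of exon (GENCODE, GRCm39), Mcl1 led in control cells with a median of 78.8 CPM per kb, followed by Bax with 27.6 and Bcl2l1 with 5.80, and Hrk was the ninth with 0.146. Bid, its nearest neighbour, had 0.704 CPM per kb, and the ranges of these did not overlap (0.468 to 1.54 for Bid, 0.0862 to 0.295 for Hrk). In control EVs the first 3 were the same, with Mcl1 at 8.85 CPM per kb, Bax at 8.01 and Bcl2l1 at 3.90, but the ranges of Mcl1 and Bax overlapped. Hrk was the sixth there with 1.98 CPM per kb (1.71 to 3.40), next to Bcl2 with 2.04 (1.49 to 2.72), and these neighbours did not differ beyond their spread.

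Cultures differed far more than doses in cells. Of the sum of squares of log2 CPM over the 18 cell libraries, the 6 cultures took 85.0 to 97.6% for 8 of the 9 members and 47.2% for Bcl2, while dose took 0.413 to 7.82%. Over all genes in cells the medians were 73.8% for culture and 2.64% for dose. Bid in control cells was 13.9 and 15.1 CPM in the female and male cultures of set 3 and 4.58 to 7.15 CPM in the other 4 cultures. Bcl2l11 was 6.87 to 12.1 CPM in both set 3 cultures and the set 4 female culture and 22.2 to 24.5 CPM in the other 3. Bbc3 was 13.9 CPM in the set 3 female culture and 2.91 CPM in the set 3 male culture, so that cultures of 1 pregnancy could lie far apart.

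In EVs, culture took 15.3 to 75.3% of the sum of squares of the 8 members, and dose 1.08 to 6.67% in 6 of them. The exceptions were Hrk, where dose took 55.1%, culture 36.8% and the remainder 8.07%, and Mcl1, where dose took 35.7%. The dose share of Hrk includes the contrast that chose it. The medians over all genes in EVs were 56.3% for culture and 6.10% for dose.

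**Figure D4:**
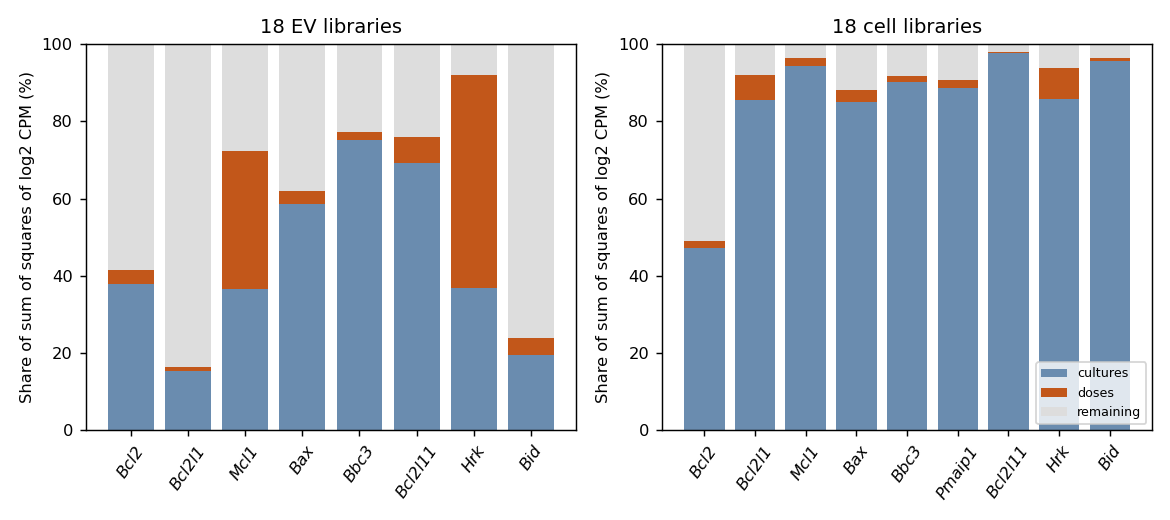
Share of the sum of squares of log2 CPM (%) between the 6 cultures, between the 3 doses and remaining, for each BCL2 family gene tested, in the 18 EV libraries and the 18 cell libraries. Dose takes 55.1% for Hrk in EVs and at most 7.82% for any member in cells.

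For the comparison of sexes the 3 libraries of a culture were added up, which gave 3 female and 3 male sums, with a block for pregnancy. In cells, 7 of 20972 genes passed (0.0334%) and 0 of the 9 members did, with 1 member and 1632 genes at an unadjusted p under 0.05. The member was Mcl1, which was lower in females in 3 of 3 pregnancies, with a log2 difference of -0.53 (SE 0.18, edgeR adjusted p = 0.622, unadjusted p = 0.0306). In EVs 0 of 14847 genes passed (0%) in edgeR and 13 in DESeq2, with 3076 genes and 0 members at an unadjusted p under 0.05. DESeq2 called 0 members in either. Hrk differed between females and males by -0.53 in EVs (SE 0.31, edgeR adjusted p = 0.359), with an interval from -1.29 to 0.24. In cells it differed by 0.20 (SE 0.31, edgeR adjusted p = 0.912). The sums weight the doses by library depth. In set 3, female EV totals were 1124918, 4721132 and 4244234 counts at 0, 120 and 320 mg/dL. Male totals there were 3354842, 959217 and 1605442. The EV difference of Hrk therefore mixes sex with dose weights, and it includes the 320 mg/dL libraries that chose Hrk. In control EVs, Hrk in sets 3, 4 and 5 was 14.1, 11.3 and 11.0 CPM in females. In males it was 9.78, 11.3 and 19.4 CPM. The change with ethanol did not differ by sex for any member at a level that passed, and 0 genes (0%) passed in edgeR in any of the 3 interactions of sex and dose tested. At an unadjusted p under 0.05 there were 1369 genes in cells at 120 mg/dL, 3318 in cells at 320 mg/dL and 481 in EVs at 120 mg/dL, with no member among them. For Hrk the change at 120 mg/dL in females minus males was -0.45 in EVs (SE 0.33, edgeR adjusted p = 1.00) and 0.11 in cells (SE 0.28, edgeR adjusted p = 0.925).

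A wider list of 53 genes of the mitochondrial death pathway was read beside the members. It held other BCL2 family genes, apoptosome and mitochondrial factors, caspases and their inhibitors, nucleases and upstream regulators. With ethanol, 0 of its 47 genes tested in cells passed at 120 or 320 mg/dL, with 2 and 3 at an unadjusted p under 0.05, and 0 of 41 in EVs at 120 mg/dL, with 4. DESeq2 called 0 of them in these 3 comparisons. The list's median log2 fold change was -0.03 and -0.06 in cells and -0.09 in EVs, against -0.01 for all genes in each of these comparisons. In EVs at 320 mg/dL the median was 0.02, against 0.01 for all genes.

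Between EVs and cells, 11 genes of this list were higher in EVs and 19 lower, of 45 tested, with a median of -0.43 against -0.09 for all genes. The share that passed is to be read against the 63.8% of all genes. Of the 9 apoptosome and mitochondrial factors, 1 was higher and 7 were lower, with a median of -1.03, and this group was not tested against other genes. Cycs, which encodes cytochrome c, was 1.74 to 5.41 CPM in EVs and 14.9 to 41.2 CPM in cells (log2 fold change -2.81, SE 0.34, edgeR adjusted p = 1.51e-05). Vdac2, a channel of the outer membrane, changed by -1.85 (SE 0.23), and the stress kinase gene Mapk8 by -1.63 (SE 0.19). Bmf, a further BH3-only gene, had the smallest adjusted p of the list. It was 11.3 to 60.3 CPM in EVs and 1.29 to 3.97 CPM in cells, with a log2 fold change of 4.21 (SE 0.28, edgeR adjusted p = 3.27e-07). Bcl2l2, a survival gene, and Cflar, which encodes an inhibitor of caspase-8, were higher in EVs by 1.90 (SE 0.21) and 2.21 (SE 0.27).

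The genes whose pattern was most like that of Hrk were sought by Pearson's r of log2 CPM after removing each culture's mean, as a description over libraries that share cultures. In the 18 EV libraries these were Lamp2 (r = 0.935), a lysosomal membrane protein gene, Dpy19l3 (0.935), Gm11274 (0.93), Zmat3 (0.926), a p53 target, and Atxn1l (0.922), among 11880 genes. At 320 mg/dL these 5 had log2 fold changes of -0.85, -0.87, -1.20, -0.70 and -0.59 in EVs. The 18 libraries include the EVs at 320 mg/dL on which Hrk was chosen. Every r with Hrk in EVs rests in part on that choice, and the falls of these 5 genes follow from how they were picked. Among the members, Mcl1 had the most negative value with Hrk in EVs, r = -0.822, and the others were between -0.177 and 0.354. In the 18 cell libraries the nearest were Gm30851 (r = 0.835), Katna1 (0.827), B230369F24Rik (0.819), A930003O13Rik (0.816) and Trp53i13 (0.812). No gene was among the first 5 in both.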

How the data were processed

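RNA of 18 EV pellets and 18 cell pellets was depleted of ribosomal RNA and sequenced from stranded libraries. The authors trimmed and deduplicated the reads with SeqSense and Trimmomatic, aligned them to mm39 with STAR and obtained counts per gene from HTSeq. The strand setting is not given in the sources used here. The deposited values are whole read counts per gene, not normalized.

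From these counts, low genes were removed with filterByExpr (at least 10 counts and a total of 15), and the rest were scaled by TMM and tested by edgeR 4.0.16 quasi-likelihood F tests in R 4.3.3, with Benjamini-Hochberg adjustment over all genes and a threshold of 0.05. Dose and location fits had a block for culture, since libraries of a culture come from the same pooled fetuses. Deviations from group means correlated between doses of a culture by a median of 0.354 to 0.522 in EVs and 0.633 to 0.652 in cells, and between EV and cell control libraries by 0.0553. In the dose and location fits, p-values measure how the change varied between cultures, since the block takes out the cultures' own levels. Between sexes they rest on 3 pregnancies, each with a female and a male culture. Single members were also tested by exact sign flips over 64 assignments, which take the female and male cultures of a pregnancy as independent. DESeq2 1.42.0, other scalings and filters, and fits without a block or a culture were the alternatives. The tests were also run on simulated counts that held no differences between cultures, unlike the data here, so no conclusion is drawn from that run. log2 CPM used a prior count of 1. Sequences and exon lengths come from GENCODE vM39 on GRCm39.

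Members and lists were chosen with earlier results of these data known. All 10 members are named, and of the wider list at most the 6 genes with the smallest adjusted p under 0.05 in a comparison, beside the 5 genes most like Hrk in EVs and in cells.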

Additional observations from a re-analysis of the deposited data

Results flagged for a closer look

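Of 54 sets of 6 libraries (a gene, location and dose) with any count, 3 held a library far from the others, where chance alone marks about 1 set in 20. Bax in control EVs was 20.3 CPM in the set 3 female culture from 26 counts, where the next value was 15.4 CPM. Bid in EVs at 120 mg/dL was 0 CPM in the set 3 male culture, the library with the lowest total, where the next value was 2.78 CPM. Pmaip1 in EVs at 320 mg/dL was 5.70 CPM in the set 4 female culture, from 4 counts, with 2.83 CPM next. None of the 3 is an Hrk value.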

How the results depend on the processing

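The fall of Hrk in EVs at 320 mg/dL kept its direction in 14 alternatives, from -1.48 with library totals to -0.87 with every EV library thinned to the smallest total, and was -1.44 to -1.13 on leaving out each culture. With only EV libraries of at least 2000000 counts, an alternative chosen after seeing the data, it was -1.12. At 120 mg/dL the range was -0.88 to -0.44, with adjusted p of 0.19 to 1.00 in edgeR. Without the block by culture it was -1.19 at 320 mg/dL. Members called were then 0 in the dose and sex comparisons tested and 5 between EVs and cells, where Bbc3 (0.69, adjusted p = 0.117) lost its call. The block changed no other call of a member in the comparisons tested, which leave out EVs at 320 mg/dL. Hrk in cells at 320 mg/dL turned to -0.090 with library totals and was -0.053 to 0.089 on leaving out each culture. Between EVs and cells, Bcl2 and Bcl2l1 turned to -0.42 and -0.41 with library totals and to -0.33 and -0.31 with no filter, and members called ranged from 5 to 8, Bid being gained in 3 alternatives, Bcl2 in 2 and Bcl2l1 in 1. Thinning left no value there for Hrk, Bbc3, Bid and Pmaip1. With 9 against 9 libraries, which count a culture 3 times, members called between sexes were 2 in cells and 1 in EVs.

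Counts over all genes moved more. At 320 mg/dL in cells, 7 genes became 94 in DESeq2 and 0 with library totals. At 120 mg/dL in EVs, 1 became 157 with no filter and 13 in DESeq2, and in cells 0 became 4 in DESeq2. In EVs at 320 mg/dL, 10 became 267 in DESeq2. Between EVs and cells, 10121 became 5484 when thinned. Between sexes, 7 became 2953 in cells and 0 became 2993 in EVs with 9 against 9 libraries. The causes were not tested. Library totals moved the median of all genes to -0.26 and -0.23 in EVs at 120 and 320 mg/dL. With 2 to 36 Hrk counts in EVs at 320 mg/dL, depth limits the precision of the fall in single cultures.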
